A study of Mus musculus with 4 samples.

Results

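The fibroblast growth factor genes described here are Fgf1, Fgf4, Fgf5, Fgf8, Fgf10, Fgf13, Fgf15, Fgf17 and Fgf18, 9 of the 18194 genes named on the array. They were chosen by name with their levels and differences in these arrays already known, so every value below is a description and none of it was tested. The array reads them with 17 of its 34958 probe sets that carry a single gene symbol. The cells were murine embryonic stem cells (CM7/1) that carry Hey1 for overexpression (the Hey1 line) or Hey2 (the Hey2 line). Hey1 and Hey2 are transcriptional repressors downstream of Notch receptors, and the series asks how such factors regulate their targets. The 4 groups had 1 Affymetrix array each: Hey1 line with 1000 ng/ml doxycycline for 48 h (labelled induced), Hey1 line uninduced, Hey2 line with the same doxycycline treatment (labelled induced), and Hey2 line uninduced. The series has no replicates, so no difference between 2 arrays carries an error, and their number limits the precision. No group with doxycycline but without Hey1 or Hey2 was analysed here, so the drug and the factor cannot be told apart. The sources used here do not say whether each line is 1 clone, or what drives Hey1 and Hey2.

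Fibroblast growth factors are mostly secreted proteins that bind FGF receptors together with heparan sulphate and switch on the Ras-ERK kinase cascade. In mouse embryonic stem cells Fgf4 is the known autocrine ligand of this cascade, and its signal prepares the cells to leave naive pluripotency. Fgf5 marks the epiblast that follows, Fgf8 and its close relatives Fgf17 and Fgf18 act in the gastrulating embryo and the brain, and Fgf10 drives limb and lung budding. Fgf15, the mouse counterpart of human FGF19, is an endocrine factor and an epiblast and neural gene. Fgf1 is released without a signal peptide and can bind all FGF receptors. Fgf13 is a relative that stays inside the cell and binds sodium channels, so it is not a ligand in this sense.

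Values are log2 probe set summaries, and a difference of 1 on this scale is 2-fold. A gene was compared where the probe set with its highest mean reached 6.05, the median of all values, on at least 1 array, which 12098 genes did. Levels of different probe sets are not set against each other. The spread of the difference between labelled induced and uninduced over these genes, as a scaled median absolute deviation, was 0.16 in the Hey1 and 0.22 in the Hey2 line. It was 0.29 between the uninduced arrays of the lines. The introduced genes did not show at their own probe sets, with -0.23 for Hey1 in its line and 0.09 for Hey2, under 6.05 on every array, in its line, so arrays are called labelled induced here. Of 8 stem cell markers 7 lay above 6.05 on all 4 arrays, among them Pou5f1, Sox2 and Nanog, and Fut4 lay below it. Of 6 primitive endoderm markers 0 did so, of 4 mesoderm markers found 1 (Eomes), of 4 neuroectoderm markers 3 and of 8 fibroblast markers 1 (Vim). The log2 sum of the fibroblast markers was 12.08 and 12.22 in the Hey1 line (labelled induced and uninduced) and 10.30 and 10.54 in the Hey2 line, and Vim makes up most of it. Thy1 read 7.80 in labelled induced and 7.13 in uninduced Hey1 cells, and 5.73 and 5.51 in the same order in Hey2 cells. Between the uninduced arrays (Hey2 minus Hey1) Vim differed by -1.89 and Thy1 by -1.62. Col1a2 lay near the filter (6.13 and 6.04, then 5.89 and 6.27), and the other 5 stayed below it everywhere. RNA quality was read from the 3' minus 5' gap of control probe sets. For Tfrc it was 0.96 in labelled induced and 0.67 in uninduced Hey2 cells, against 0.84 and 0.95 in Hey1 cells, and for Pcx it was 1.56 and 1.33, against 1.43 and 1.38. For Actb it was 0.42 and 0.39, against 0.51 and 0.48, and for Gapdh it was 0.03 and 0.01, against 0.04 and 0.04. The gap was thus larger in Hey2 cells labelled induced by 0.29 for Tfrc and 0.23 for Pcx but by only 0.03 for Actb and 0.02 for Gapdh. Its part in the Hey2-line differences below was not tested.

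Of the 9 genes, Fgf1, Fgf4, Fgf13, Fgf15, Fgf17 and Fgf18 passed the level filter, and Fgf5, Fgf8 and Fgf10 stayed below it on every array. In the Hey1 line 1 of the 6, Fgf1, was at least 2-fold higher in the array labelled induced, where 0.438% of all genes compared were, and 0 were at least 2-fold lower, against 0.0331% of all genes. In the Hey2 line 0 were at least 2-fold higher (0.686% of all genes) and 2, Fgf1 and Fgf18, were at least 2-fold lower (0.240%). The median of the 6 was -0.15 in the Hey1 and -0.77 in the Hey2 line, beside -0.01 and -0.02 over all genes compared. With no filter the median of all 9 was -0.18 in the Hey1 and -0.34 in the Hey2 line, and the Hey2-line median of the 6 was -0.13 against uninduced Hey1 cells. Of the 6 genes 4 were below 0 in the Hey1 line, as were 53.1% of all genes compared, 5 in the Hey2 line (54.3% of all) and 4 in both (35.5% of all). Fgf1 and Fgf18 each passed the filter on 1 array, the one where they were highest, so these counts and medians describe the 6 genes and do not stand for all 9. All 4 arrays of 8 probe sets lay above 6.05, as the plot of levels shows.

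**Figure D1:**
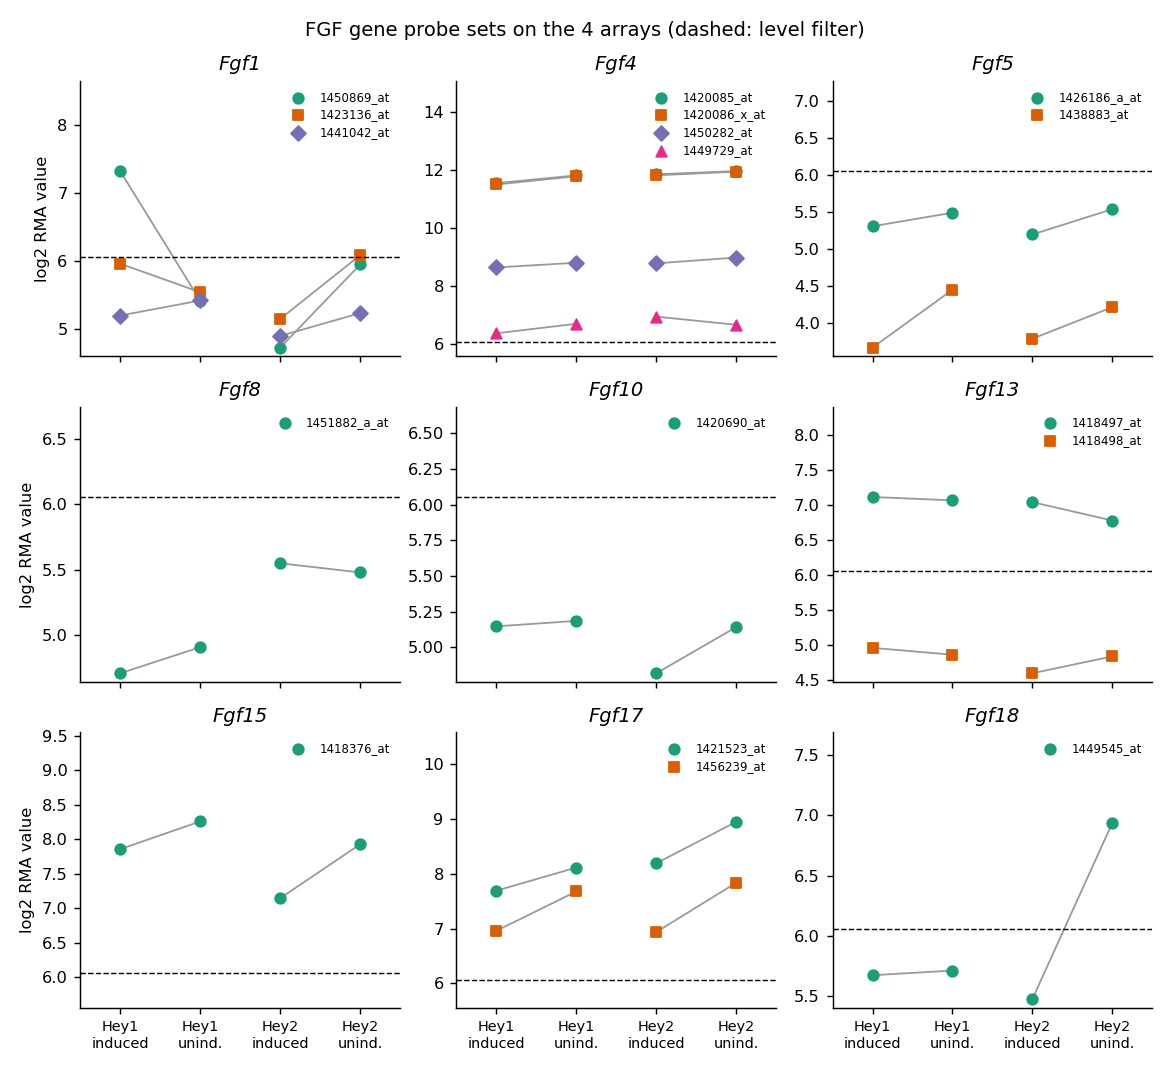
Log2 RMA values (y axis) of the 17 probe sets of the 9 FGF genes on the 4 arrays (x axis: Hey1 line labelled induced, Hey1 uninduced, Hey2 line labelled induced, Hey2 uninduced). Each marker shape and colour is a probe set, lines join the 2 arrays of a line, and the dashed line is the level filter at 6.05. Fgf15 and both probe sets of Fgf17 lie lower in the array labelled induced of each line, Fgf18 stands out only in uninduced Hey2 cells (6.94), and the first Fgf1 probe set only in Hey1 cells labelled induced (7.32).

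Fgf17, a patterning factor of the midbrain and cerebellum, was lower in labelled induced than in uninduced cells within each line, by both of its probe sets. Probe set 1421523_at read 7.69 in labelled induced and 8.11 in uninduced cells of the Hey1 line. Hey2 cells gave 8.19 when labelled induced and 8.95 when uninduced. The uninduced Hey2 array was thus the highest of the 4, and the differences were -0.42 in the Hey1 and -0.76 in the Hey2 line. The Hey2-line direction rests on that array: against uninduced Hey1 cells the Hey2 array labelled induced differed by 0.08. Of all genes compared 1.64% had a difference as low in the Hey1 line. In the Hey2 line 0.81% did. The other probe set, 1456239_at, was designed on a different accession. It read 6.96 in labelled induced and 7.68 in uninduced Hey1 cells, and 6.94 in labelled induced and 7.84 in uninduced Hey2 cells. For this probe set both arrays labelled induced lay below both uninduced arrays, with differences of -0.72 and -0.90. Among the 5378 genes with at least 2 probe sets above the filter, 17.7% had both of their highest probe sets below 0 in both lines. The probe sets of Fgf17 disagreed on the lines themselves: the uninduced Hey2 array exceeded the uninduced Hey1 array by 0.84 in the first and by 0.16 in the second.

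Fgf18, which acts in bone, cartilage and lung, stood out in a single array. Its only probe set, 1449545_at, read 5.67 in labelled induced and 5.71 in uninduced cells of the Hey1 line, and 5.47 in labelled induced and 6.94 in uninduced cells of the Hey2 line. Uninduced Hey2 cells were the only ones above the filter, 1.23 above the next array, while the other 3 arrays lay within 0.24 of each other. The difference was -0.04 in the Hey1 and -1.47 in the Hey2 line. The value of Hey2 cells labelled induced lay below the filter, so the size of that difference is uncertain, and it was -1.02 with an offset of 32 added to the linear values before log2. The 2-fold call rests on the uninduced Hey2 array: set against uninduced Hey1 cells, the Hey2 array labelled induced differed by only -0.24. Fgf8, the organiser signal of the early embryo and their close relative, read 4.71 in labelled induced and 4.91 in uninduced Hey1 cells. Its Hey2-line values were 5.55 in labelled induced and 5.48 in uninduced cells. All 4 values were below the filter, both Hey2-line arrays lay above both Hey1-line arrays, and the differences were -0.20 and 0.07.

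Promoters are shown for Fgf18, which had the lowest Hey2-line difference of the 9 genes, and for Fgf4, the stem cell ligand, since the study is about repressors that bind promoters. Each is the 300 bases from 250 before to 50 after the RefSeq start of the gene (GRCm38.p6). The windows were searched on both strands for CACGTG and CACGCG, core letters that Hey proteins are known to bind, and for GGGCGG, the core of the GC box bound by Sp1. Capitals mark the matches on either strand, which are all GGGCGG or its reverse complement.
Fgf18 (chr11:33147351-33147650, minus strand): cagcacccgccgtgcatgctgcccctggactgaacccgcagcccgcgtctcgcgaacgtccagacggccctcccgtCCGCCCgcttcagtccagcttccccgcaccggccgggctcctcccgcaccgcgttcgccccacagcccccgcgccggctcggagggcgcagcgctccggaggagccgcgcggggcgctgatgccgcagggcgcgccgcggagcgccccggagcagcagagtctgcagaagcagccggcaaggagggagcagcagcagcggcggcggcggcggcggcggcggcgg
Fgf4 (chr7:144861136-144861435, plus strand): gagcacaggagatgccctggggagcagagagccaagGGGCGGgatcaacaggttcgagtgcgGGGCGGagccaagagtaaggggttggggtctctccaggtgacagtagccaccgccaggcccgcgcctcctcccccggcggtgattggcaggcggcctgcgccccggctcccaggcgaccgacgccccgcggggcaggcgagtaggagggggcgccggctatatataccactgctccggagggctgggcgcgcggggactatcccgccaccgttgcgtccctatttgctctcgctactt
The search covered windows of 5 of the 9 genes (Fgf4, Fgf5, Fgf10, Fgf18 and 4 starts of Fgf13), 8 in all. The other genes were not searched, so the counts below do not stand for all 9. CACGTG was in 0 of the 8 windows and in 7.15% of 32851 promoters of the same length. CACGCG was in 1 of the 8, at a start of Fgf13, and in 9.27% of all promoters. GGGCGG was in 6 of the 8 and in 35.7% of all, with 2 matches in Fgf4 and 1 in Fgf18. The 2 printed windows are rich in G and C (78.7% in Fgf18 and 69.7% in Fgf4). A match or its absence describes these letters in this window and nothing about binding.

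Fgf4, the ligand through which embryonic stem cells signal to themselves, stayed well under 2-fold in both lines. Probe set 1420085_at read 11.55 in labelled induced and 11.82 in uninduced cells of the Hey1 line, and 11.86 in labelled induced and 11.97 in uninduced cells of the Hey2 line. All 4 arrays lay far above the filter and within 0.42 of each other, with Hey1 cells labelled induced the lowest. The differences of -0.27 and -0.11 are 1.20-fold and 1.08-fold. Probe set 1420086_x_at, which shares its accession with the first and so is no independent reading, gave -0.29 and -0.13. Probe set 1450282_at, designed on the RefSeq transcript, read 8.63 in labelled induced and 8.79 in uninduced Hey1 cells, and 8.78 in labelled induced and 8.98 in uninduced Hey2 cells. Its differences were -0.16 and -0.20, so these 3 probe sets were below 0 in both lines. The 3 Hey1-line differences were larger than that line's spread over genes of 0.16, and that of the first probe set lay among the lowest 6.33% of all genes compared. In the Hey2 line all 3 were smaller than the spread of 0.22. The remaining probe set, 1449729_at, had -0.33 in the Hey1 and 0.28 in the Hey2 line, the only one of the 4 with opposite signs. It carries the same accession as the first pair.

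Fgf5, the epiblast marker of the same subfamily, read low throughout. Probe set 1426186_a_at gave 5.31 in labelled induced and 5.49 in uninduced Hey1 cells, and 5.20 in labelled induced and 5.54 in uninduced Hey2 cells. Probe set 1438883_at gave 3.67 and 4.45 in labelled induced and uninduced Hey1 cells, and 3.79 and 4.22 in labelled induced and uninduced Hey2 cells. Both probe sets were below 0 in both lines, by -0.18 and -0.34 for the first and by -0.78 and -0.43 for the second, and neither came near the filter. Under the filter the scaled median absolute deviation of all probe sets was 0.20 in the Hey1 and 0.24 in the Hey2 line. The 5 epiblast markers set beside Fgf5 had medians of 0.03 and -0.13, and 4 of the 5 lay above the filter on all arrays. The fifth, the transcription factor gene Zic2, read 5.70 in labelled induced and 7.29 in uninduced Hey1 cells, and 4.59 in labelled induced and 5.64 in uninduced Hey2 cells. Its differences of -1.59 and -1.06 had the direction of Fgf5, as did those of the pluripotency factor gene Foxd3 (-0.68 and -0.13). Dnmt3b (0.10 and 0.13) and Pou3f1 (0.21 and 0.24) went the other way in both lines, and Otx2 had 0.03 and -0.19. The part of these markers in the Fgf5 values was not tested.

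Fgf15 was lower in the array labelled induced of both lines. Its only probe set, 1418376_at, read 7.85 in labelled induced and 8.26 in uninduced cells of the Hey1 line, and 7.14 in labelled induced and 7.92 in uninduced cells of the Hey2 line. Hey2 cells labelled induced were the lowest, 0.71 below the next array, and uninduced Hey1 cells were the highest. The difference of -0.40 in the Hey1 line lay among the lowest 1.98% of all genes compared, and that of -0.78 in the Hey2 line among the lowest 0.711%. Fgf15 and Fgf17 were the 2 of the 6 genes that were lower by more than the scaled median absolute deviation in both lines, which 6.70% of all genes were. Unlike Fgf18, Fgf15 was not higher in uninduced Hey2 than in uninduced Hey1 cells, where it differed by -0.33. Hey1 cells labelled induced differed from uninduced Hey2 cells by only -0.07. The summed level of the neuroectoderm markers was also lower in both arrays labelled induced, at 9.26 (log2) in labelled induced and 9.50 in uninduced Hey1 cells, and 9.19 in labelled induced and 9.52 in uninduced Hey2 cells. Among them the neural transcription factor gene Sox1 had -0.78 in the Hey1 and -1.07 in the Hey2 line, Nes 0.17 and -0.45, Neurod1 -0.11 and -0.10, and Pax6 -0.06 and -0.13. Their part in the Fgf15 and Fgf17 differences was not tested.

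Fgf1 differed in opposite directions in the lines, with weak agreement among its probe sets. Probe set 1450869_at read 7.32 in labelled induced and 5.42 in uninduced cells of the Hey1 line, and 4.73 in labelled induced and 5.95 in uninduced cells of the Hey2 line. Hey1 cells labelled induced were the only ones above the filter, and the uninduced arrays lay between the 2 arrays labelled induced. Between the arrays labelled induced the Hey2 line differed from the Hey1 line by -2.59, with the Hey2-line value below the filter, and Fgf1 was the 1 of the 6 genes at least 2-fold lower there (0.835% of all genes). Past 2-fold in opposite directions in the lines was only Fgf1, 0.00827% of all genes compared. Both of its Hey2-line values lay below the filter, and with the offset of 32 the differences were 1.36 in the Hey1 and -0.68 in the Hey2 line, so that the Hey2 line no longer reached 2-fold. Probe set 1423136_at shares its accession and read 5.96 in labelled induced and 5.54 in uninduced Hey1 cells, and 5.15 in labelled induced and 6.09 in uninduced Hey2 cells. It had the same signs, at 0.42 and -0.94, and neither reached 2-fold. The third, 1441042_at, read 5.20 in labelled induced and 5.42 in uninduced Hey1 cells, and 4.90 in labelled induced and 5.24 in uninduced Hey2 cells. It stayed below the filter with -0.22 in the Hey1 and -0.34 in the Hey2 line, so the higher value in the Hey1 line was seen in 2 of 3 probe sets and the lower value in the Hey2 line in 3 of 3.

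Fgf10, the budding factor of limb and lung, stayed below the filter. Its probe set 1420690_at read 5.15 in labelled induced and 5.19 in uninduced Hey1 cells, and 4.82 in labelled induced and 5.14 in uninduced Hey2 cells. Hey2 cells labelled induced were 0.32 below the next array, and the other 3 lay within 0.04 of each other. Fgf13, the intracellular relative, was the 1 gene of the 6 that had no negative difference. Its probe set 1418497_at read 7.11 in labelled induced and 7.06 in uninduced Hey1 cells, and 7.04 in labelled induced and 6.77 in uninduced Hey2 cells. The differences of 0.05 and 0.26 place it at the 65.2th and 87.1th percentile of all genes. Its second probe set, 1418498_at, lay below the filter and gave 0.10 and -0.24, so the Hey2-line sign was not shared.

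**Figure D2:**
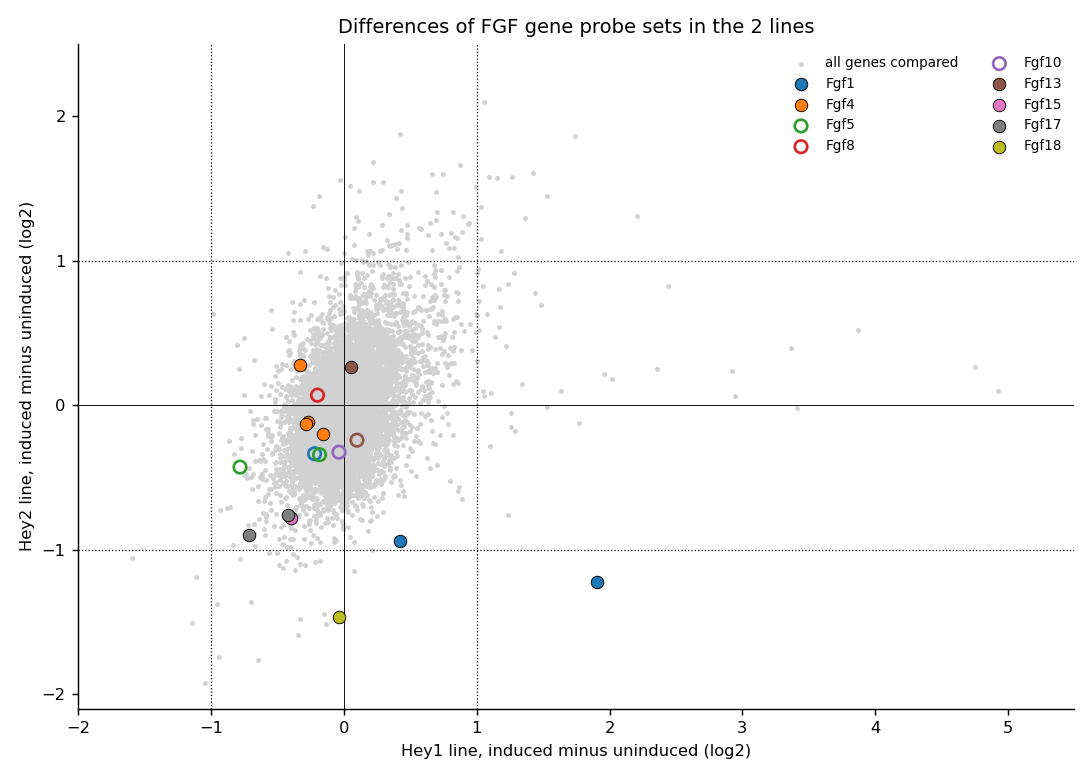
Induced minus uninduced log2 difference in the Hey1 line (x axis) and the Hey2 line (y axis) of each of the 17 FGF probe sets, by gene, over the 12098 genes compared (grey). Filled points reached the level filter on at least 1 array and open ones did not. Dotted lines mark 2-fold. Fgf17 and Fgf15 lie left of and below 0, Fgf18 near 0 (Hey1 line) and at -1.47 (Hey2 line), and the first Fgf1 probe set at 1.90 and -1.22.

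The lines also differed from each other before induction. In uninduced cells the Hey2 line exceeded the Hey1 line by 1.23 for Fgf18, which lay below the filter in the Hey1 line, and 1 of the 6 genes was at least 2-fold higher there, as were 0.827% of all genes compared. Fgf17 was higher by 0.84 and Fgf1 by 0.53, while Fgf4 differed by 0.15, Fgf13 by -0.29 and Fgf15 by -0.33. Between the arrays labelled induced the Hey2 line differed from the Hey1 line by 0.50 for Fgf17, by -0.20 for Fgf18 and by -0.71 for Fgf15. The second Fgf17 probe set gave 0.16 between the uninduced arrays and -0.02 between those labelled induced. These comparisons share arrays with the differences within lines, so a high uninduced Hey2 value enters both. Fewer cells that express a gene and less RNA per cell cannot be told apart in such bulk samples.

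Genes with the most similar values over the 4 arrays were sought for the 4 genes that spanned at least 1 log2 unit, by the Euclidean distance between values centred on each gene's mean. For Fgf18 they were Sgms2, a sphingomyelin synthase gene (distance 0.08), the lysosomal transporter gene Slc46a3 (0.25) and Coch, a matrix protein gene of the inner ear (0.30). Sgms2 had -0.15 in the Hey1 and -1.45 in the Hey2 line, nearly the values of Fgf18. For Fgf17 they were the splicing regulator gene Esrp1 (0.15), the tropomyosin gene Tpm1 (0.17) and the transcription factor gene Foxp1 (0.18), all highest in uninduced Hey2 cells. For Fgf15 they were the focal adhesion gene Tns1 (0.18), Frmd4a (0.18) and the lysophosphatidic acid receptor gene Lpar1 (0.19). For Fgf1 no gene came close, with Hmgn3, a nucleosome binding protein gene, at 0.88, Sbsn at 0.90 and Rfpl4b at 0.92. Slc46a3 passed the filter only in uninduced Hey2 cells (6.28), and Rfpl4b only in Hey1 cells labelled induced (6.52). Both lay below it on the other arrays. With 4 arrays many genes share a profile, and these are descriptions only.

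**Figure D3:**
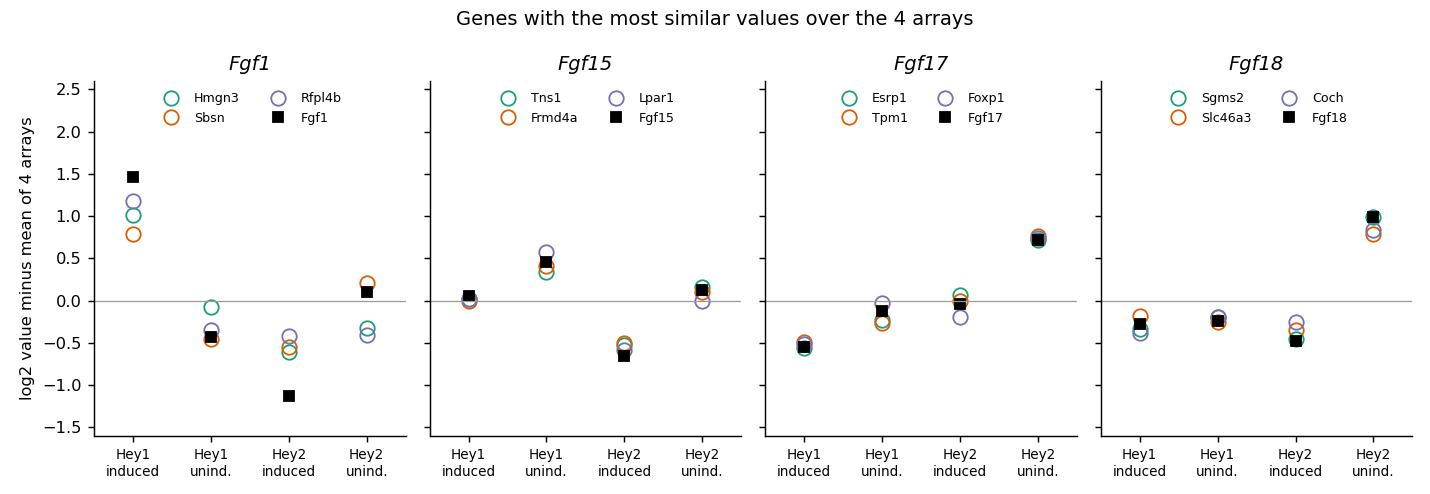
Log2 value minus the gene's mean over the 4 arrays (y axis) on each array (x axis) for Fgf1, Fgf15, Fgf17 and Fgf18 (black squares) and the 3 genes closest to each (open circles). The Fgf18 panel shows Sgms2 (distance 0.08) at nearly the same points, and the Fgf1 panel shows all 3 genes (0.88 to 0.92) apart from Fgf1 in Hey2 cells labelled induced.

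Other genes of the pathway did not reach 2-fold in either line. Of the 13 further FGF genes, 5 passed the filter, with medians of -0.10 in the Hey1 and -0.48 in the Hey2 line. Fgf3, an inner ear and tail factor, read 5.68 in labelled induced and 6.27 in uninduced Hey1 cells, and 5.38 in labelled induced and 6.18 in uninduced Hey2 cells. Both uninduced arrays thus lay above both arrays labelled induced, with differences of -0.59 and -0.80. The other 2 probe sets of Fgf3 were also below 0 in both lines, but lay under the filter on every array. Fgf9, a gonad and lung factor, had -0.23 and -0.48, and Fgf22, a synaptic factor, had -0.04 and -0.52. Fgf21, a liver hormone gene, had -0.10 and 0.27, and Fgf11, a relative of Fgf13, had 0.66 and 0.09. A further probe set gave -0.12 and -0.11 for Fgf11 and 0.06 and -0.19 for Fgf9, both under the filter on every array. The Hey1-line signs of Fgf11 and Fgf9 were thus not shared. For Fgf22 the further probe set gave -0.24 and -0.38. The remaining 8 (Fgf2, Fgf6, Fgf7, Fgf12, Fgf14, Fgf16, Fgf20 and Fgf23) stayed below the filter on every array. In the Hey2 line they ran from -0.30 (Fgf12) to 0.35 (Fgf2), with Fgf6, Fgf7, Fgf16 and Fgf20 also above 0. Fgf14 and Fgf23 were below 0 there. Of the 5, Fgf3 passed the filter only on uninduced arrays, and Fgf11 and Fgf21 only on arrays labelled induced. The medians of those 5 thus do not stand for all 13 genes.

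The receptors stayed under 2-fold. Fgfr1 differed by more than the spread over genes in both lines, Fgfr2 in the Hey2 line only and Fgfrl1 in the Hey1 line only. Fgfr1, the main receptor of embryonic stem cells, read 9.28 in labelled induced and 8.93 in uninduced Hey1 cells, and 9.63 in labelled induced and 9.40 in uninduced Hey2 cells, with differences of 0.35 and 0.23. Fgfr2, a receptor of primitive endoderm, read 6.44 in labelled induced and 6.32 in uninduced Hey1 cells, and 6.59 in labelled induced and 7.17 in uninduced Hey2 cells. Like Fgf18 and Fgf17 it was highest in uninduced Hey2 cells, and its differences were 0.12 and -0.58. Its other 2 probe sets lay below the filter and gave -0.46 and -0.25 in the Hey2 line. Fgfr3 had -0.02 and 0.06, Fgfr4 0.03 and 0.01, and the decoy receptor gene Fgfrl1 0.19 and -0.05. The other Fgfrl1 probe set, also above the filter, gave -0.02 and 0.02, so the Hey1-line difference was not shared. The klotho coreceptor genes Kl and Klb stayed below the filter.

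In the list of heparan sulphate and FGF binding proteins 20 genes were compared, with medians of 0.02 and -0.09, and the largest mean differences were those of the cell surface proteoglycan genes Gpc4 (0.66 and 0.75) and Sdc4 (0.76 and 0.29). In the relay from receptor to ERK 16 genes were compared, with medians of 0.03 in each line, and the largest mean differences were those of the adaptor gene Frs3 (-0.49 and -0.19) and the Ras activator gene Sos2 (0.29 and 0.12). Among 14 ERK feedback and target genes the medians were 0.04 and -0.12, with 7 and 9 below 0. Spred3, an ERK inhibitor gene, had 0.14 and 0.99. Spred3 passed the filter only in Hey2 cells labelled induced (6.23) and read 5.24 in uninduced Hey2 cells, so the size of its Hey2-line difference is uncertain. The receptor antagonist gene Il17rd had -0.61 and -0.51. The other Il17rd probe set lay above the filter only in the Hey2 line. It gave 0.17 in the Hey1 and -0.05 in the Hey2 line, so differences of that size were not shared. The immediate early gene Egr1 had 0.89 and -0.65, opposite signs like Fgf1 but with another pattern of levels. For Egr1 the Hey2 line differed from the Hey1 line by 1.30 in uninduced and by -0.23 in labelled induced cells. For Fgf1 these values were 0.53 and -2.59.

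**Figure D4:**
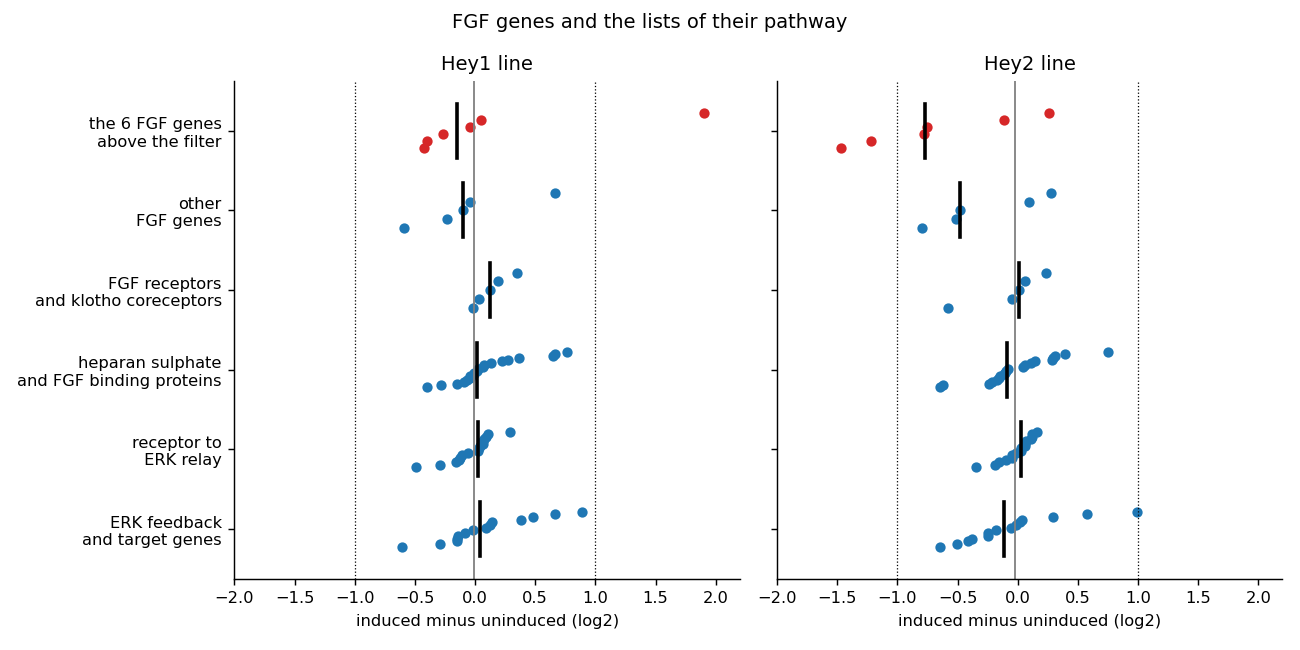
Induced minus uninduced log2 difference (x axis) in the Hey1 line (left) and the Hey2 line (right) of the 6 FGF genes above the filter (red) and of the pathway lists (blue). Each point is a gene, black bars are list medians, the grey line is the median of all genes compared and dotted lines mark 2-fold. In the Hey2 line the median of those 6 is -0.77 and that of the other FGF genes above the filter -0.48. The receptor median is 0.01 and the relay median 0.03. Fgf18 and Fgf3 passed the filter only on uninduced arrays, which favours a negative difference. Both FGF medians thus describe only the genes that passed. With no filter the Hey2-line median of all the FGF genes described here is -0.34.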

How the data were processed

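Total RNA of 4 samples was hybridised to Affymetrix arrays. The authors deposited log2 values, 1 per probe set and array, made with RMA per the submitters' processing notes, and the log2 scale was read from their range (2.67 to 15.2). All arrays share 1 distribution (sorted values differ by at most 0.0024), which hides any shift shared by all genes. Versions, chip description file and build: not given in the sources used here. Of 45101 probe sets, only the 34958 with exactly 1 symbol in the platform annotation were used (932 have more and 9211 have none). Of these 34754 matched the RefSeq table (GRCm38.p6) by gene ID. A gene was represented by its probe set with the highest mean.

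Samples were grouped by title, uninduced was subtracted from labelled induced within each line, and genes at 2-fold were counted. The members and lists were chosen with earlier results of these data known. With 1 array per group nothing was tested. Named were all 9 genes and their probe sets, all other FGF and receptor genes, list members past 2-fold or with the 2 largest mean differences, and the 3 genes closest to a member. Egr1 and single cell type markers were picked with their values known. The gene table was checked on data with planted differences. Alternatives were other filters, probe set choices, scalings, an offset and the other line's uninduced array. Python 3.11.15, numpy 2.4.6, pandas 2.3.3 and matplotlib 3.10.9 were used, and limma 3.58.1 in R 4.3.3 for cyclic loess.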

Additional observations from a re-analysis of the deposited data

Results flagged for a closer look

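Probe sets whose difference had opposite signs in the Hey1 and Hey2 lines, each beyond the spread over genes of its line (0.16 and 0.22), were picked out. With 1 array per group the difference between the lines was not tested. They were 1450869_at of Fgf1 (1.90 in the Hey1 and -1.22 in the Hey2 line), 1423136_at of Fgf1 (0.42 and -0.94) and 1449729_at of Fgf4 (-0.33 and 0.28). The share of all probe sets that meet this rule was not counted, so how rare such probe sets are is not known here. By the stricter rule of 2-fold in opposite directions, only Fgf1 was called, 0.00827% of all genes compared. Its Hey2-line values lay below the filter, and the Hey2-line difference was -0.68 with the offset of 32. The third Fgf1 probe set and the other 3 of Fgf4 had the same sign in both lines.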

How the results depend on the processing

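Each array labelled induced was set against the uninduced array of its own line. A fit of doxycycline with the line as a block was not run, since it would take Hey1 and Hey2 as replicates of 1 treatment and the genes were chosen on these arrays. In the Hey1 line the count of the 9 genes at 2-fold or more, 1 as reported, became 0 with the filter at the 75th percentile (8.31), where only Fgf4 and Fgf17 are left, 0 with probe sets averaged per gene, 0 with the second probe set and 3 against uninduced Hey2 cells (Fgf1, Fgf17 and Fgf18). In the Hey2 line the count of 2 became 0 with that filter, 1 with probe sets averaged (Fgf18), 0 with the second probe set, which Fgf18 lacks, 1 with an offset of 32 (Fgf18) and 1 against uninduced Hey1 cells (Fgf15). The median difference of the genes became -0.35 in the Hey1 and -0.44 in the Hey2 line with the stricter filter. The Hey2-line median became -0.34 with no filter and -0.13 against uninduced Hey1 cells. Against those cells Fgf17 had 0.08, Fgf18 -0.24 and Fgf15 -1.11. The pathway counts of 0 became 1 (heparan sulphate list) and 1 (ERK targets) in the Hey1 line and 3 (heparan sulphate list) in the Hey2 line against the other line's uninduced array, and 1 (ERK targets, Hey2 line) with cyclic loess. Over all genes the counts of 57 and 112 became 24 and 46 with the stricter filter, 20 and 49 with the second probe set, 33 and 52 with the offset, and 387 and 229 against the other uninduced array. The cause was not tested, beyond what the fewer genes show.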

Other observations

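Fgf3, Fgf4 and Fgf15 are consecutive protein-coding genes on mouse chromosome 7 in the RefSeq table, and their neighbours were looked up after the values of these genes were seen. On the side of Fgf3 the next genes are the chloride channel gene Ano1 (0.07 in the Hey1 and -0.28 in the Hey2 line) and the death adaptor gene Fadd (0.05 and -0.15). On the side of Fgf15 they are LTO1 (-0.05 and -0.32) and the cyclin D1 gene Ccnd1. Ccnd1 read 10.62 in labelled induced and 10.87 in uninduced Hey1 cells, and 9.54 in labelled induced and 10.49 in uninduced Hey2 cells, differences of -0.25 and -0.95. Fgf3, Fgf4 and Fgf15 were already known to be below 0 in both lines, so they are not counted here. Ano1, Fadd, LTO1 and Ccnd1 were below 0 in the Hey2 line, as were 54.3% of all genes compared. In the Hey1 line LTO1 and Ccnd1 were below 0 and Ano1 and Fadd above it, and 53.1% of all genes were below 0. Fgf4, between Fgf3 (-0.59 and -0.80) and Fgf15 (-0.40 and -0.78), had the smallest Hey2-line difference of these 7 genes, at -0.11.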
